A study of Mus musculus with 27 samples.

Results

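The genes described here are 41 genes of the interferon response and of antigen presentation, out of 26264 gene symbols in a table of FPKM values from mouse cortex. They were picked by gene name, with no threshold on a measured value. The table writes symbols in lower case, such as ifit1, isg15 and h2-aa. All 41 had a row. The list held 5 interferon transcription factors and NLR regulators, 16 antiviral sensors and effectors, 4 genes of ISG15 conjugation, 3 guanylate-binding proteins, 8 genes of MHC class I and its peptide supply, and 5 of MHC class II.

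The study asked how R55 and R33, thiophene thiourea compounds described as pharmacological chaperones of the retromer, act within a day on cortex that carries an amyloid transgene. Every mouse was a 16-week-old female of the 5xFAD/C57BL6 line, in which neurons express human amyloid transgenes under the Thy1 promoter, and every mouse received a 500 nL injection into the cortex of 1 hemisphere. The injection held R55 at 10 mM, R33 at 10 mM or the vehicle, a mixture of DMSO and sulfobutylether cyclodextrin in saline, and a block of about 1 mm3 was taken from each hemisphere 24 hours later for bulk RNA sequencing. No uninjected mouse and no mouse without the transgene entered these comparisons, so each value describes an operated 5xFAD brain, and the contralateral side was no untouched control.

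Libraries from 14 mice were used. Vehicle was given to mice J, L, M and AH, R33 to mice K, N, O, AD and AE, and R55 to mice P, Q, R, AA and AB. Both hemispheres were measured in 13 mice, while mouse AE had the injected side alone, which gave 27 libraries, or 4 vehicle, 4 R33 and 5 R55 on the contralateral side and 4, 5 and 5 on the injected side. Per-library values below follow this order of mice. A block of tissue holds many cell types, so fewer cells of a type and less RNA per cell could not be told apart.

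Interferons bind surface receptors whose kinases activate STAT2, and STAT2 joins IRF9 in a factor that binds interferon-stimulated response elements, or ISREs, in promoters. The genes so induced include antiviral effectors, the ubiquitin-like protein ISG15 with its conjugating enzymes, and IRF7, which amplifies the response. Type II interferon acts mainly on GAS elements and induces the guanylate-binding proteins and, by way of NLRC5 and CIITA, the class I and class II antigen presentation genes. In brain, microglia express many of these genes at rest, and a fraction of microglia in amyloid models carries a strong interferon signature.

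The promoters of 4 members show what these elements look like. Each is the 250 bases before a RefSeq transcription start (GRCm38.p6), written 5′ to 3′ on the gene's strand, and was shown because its gene has a leading place in the values below. In the genome the 3 Ifit genes share chromosome 19 and the 3 Gbp genes chromosome 3, and H2-K1, H2-D1, Psmb8, Psmb9, Tap1, Tap2, Tapbp, H2-Aa, H2-Ab1 and H2-Eb1 lie on chromosome 17. Capitals mark the ISRE core (GAAANNGAAA or TTTCNNTTTC) in Isg15, Ifit3 and Gbp2, and the Y box core (ATTGG or CCAAT) in H2-Aa.
Isg15, chr4:156200819-156201068, minus strand: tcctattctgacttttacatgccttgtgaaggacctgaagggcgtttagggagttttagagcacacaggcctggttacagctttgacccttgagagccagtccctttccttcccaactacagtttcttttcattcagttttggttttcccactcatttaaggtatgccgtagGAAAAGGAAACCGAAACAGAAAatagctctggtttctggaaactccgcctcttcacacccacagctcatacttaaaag
Ifit3, chr19:34583279-34583528, plus strand: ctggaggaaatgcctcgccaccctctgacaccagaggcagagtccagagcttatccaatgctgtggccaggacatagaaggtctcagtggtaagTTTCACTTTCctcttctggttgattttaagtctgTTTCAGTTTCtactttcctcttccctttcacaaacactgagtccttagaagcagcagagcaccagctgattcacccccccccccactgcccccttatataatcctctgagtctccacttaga
Gbp2, chr3:142620413-142620662, plus strand: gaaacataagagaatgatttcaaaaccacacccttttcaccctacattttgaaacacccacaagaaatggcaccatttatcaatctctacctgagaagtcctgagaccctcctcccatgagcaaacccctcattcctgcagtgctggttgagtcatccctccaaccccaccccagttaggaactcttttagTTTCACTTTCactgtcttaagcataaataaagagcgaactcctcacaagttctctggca
H2-Aa, chr17:34287824-34288073, minus strand: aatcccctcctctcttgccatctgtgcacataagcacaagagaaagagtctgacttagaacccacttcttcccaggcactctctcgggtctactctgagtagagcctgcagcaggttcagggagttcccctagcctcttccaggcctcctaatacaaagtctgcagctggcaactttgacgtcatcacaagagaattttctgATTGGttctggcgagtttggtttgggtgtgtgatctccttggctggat

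The 3 ISRE cores of Isg15 overlap, and they begin 78, 72 and 66 bases before the start. Ifit3 has 2 cores, at 156 and 122 bases, and Gbp2 has 1, at 59 bases. Promoters were matched for 31 of the 41 members. An ISRE core on either strand was present in 11 of these 31 (35.5%), and in 3.46% of all 27025 genes of the promoter table. It was found in all 3 guanylate-binding protein genes, in 5 of 12 antiviral genes, and in 0 of 3 class II genes. The GAS core (TTCNNNGAA, the same on both strands) occurred in 5 of 31 members (16.1%) and in 8.13% of all genes. The Y box core, which belongs to the class I and class II promoter module but is also a common CCAAT box, was in 13 of 31 members (41.9%) against 37.5% of all genes. It was held by 6 of 7 class I promoters and 2 of 3 class II promoters. The windows of Psmb9 and Tap1 overlap, and their matches are the same site read on opposite strands. A match of letters is a description of the window and no measure of binding.

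Of the 41 members, 37 averaged 1 FPKM or more and were tested. Nlrc5, Ciita, Mx1 and Ifi44 lay below that level. Rsad2 and Oas1a passed only through the injected library of mouse AA, since their means of 1.08 and 1.11 FPKM were 0.889 and 0.944 FPKM without it. Libraries held 15932196 to 38077026 fragments (median 27441308). Markers of excitatory cortical neurons summed to 401 to 852 FPKM over 4 genes. The lowest sum was that of R33 mouse O, injected, which also had the highest sums of inhibitory neuron markers (263 FPKM) and oligodendrocyte markers (2060 FPKM). The injected library of R55 mouse AA stood apart from all others in the members, and the injected library of R33 mouse AD came next, so many of the R55 differences below are followed by the value without the former.

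**Figure D1:**
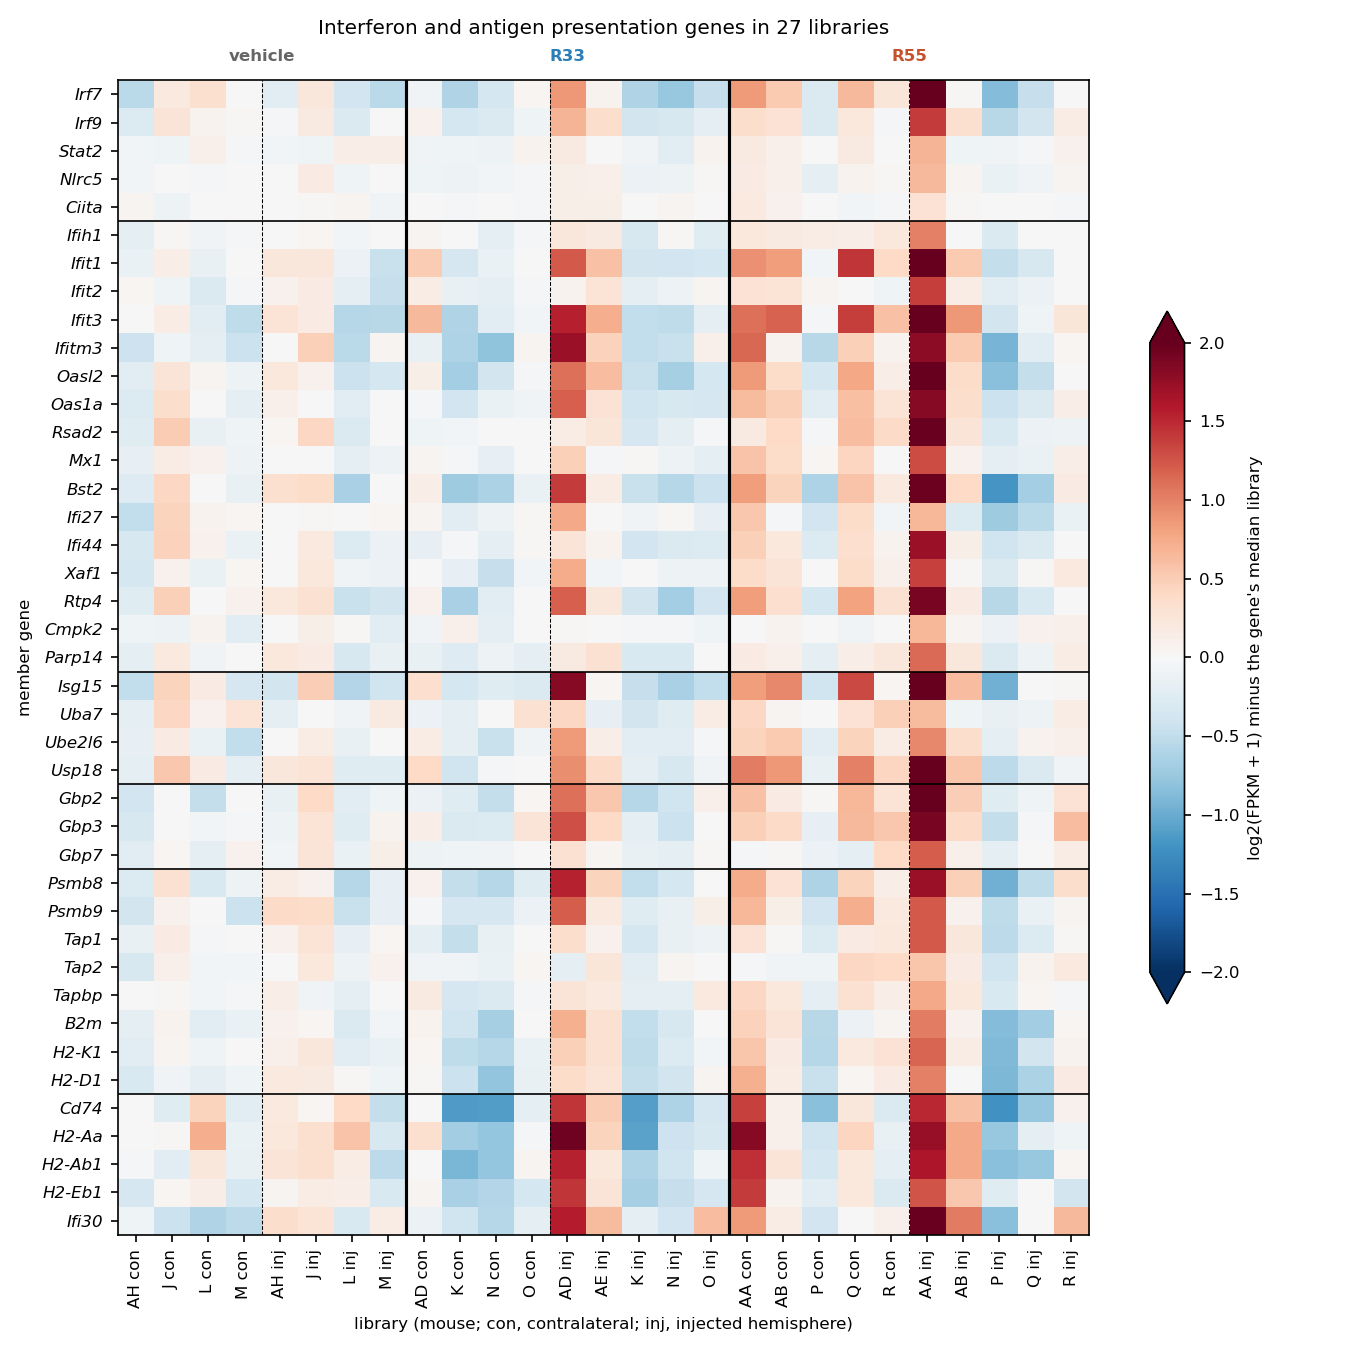
Each of the 41 members (rows, ordered by role) in each of the 27 libraries (columns), coloured by log2(FPKM + 1) minus that gene's median over the libraries, with the scale ending at 2 and -2. The column of mouse AA, injected (AA inj) is the darkest red, mouse AD, injected (AD inj) is next, and mouse P, injected (P inj) is the lowest for 22 of the 41 rows.

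No member passed the test in any of 13 comparisons between treatments or hemispheres (limma on log2(FPKM + 1), Benjamini-Hochberg adjusted p under 0.05 over 12976 tested genes). By the same rule 0.00771% of all tested genes, a single gene outside the list, were called between R55 and vehicle. Between R55 and vehicle in contralateral tissue 0.0231% were called, and in each of the other 11 comparisons 0%. At an unadjusted p under 0.05, 4 members differed between R55 and vehicle, all higher with R55, while 8.45% of all tested genes did. The count was 0 members between R33 and vehicle (5.87% of all tested genes), 1 between R55 and R33 (1.15%) and 1 between hemispheres (3.47%). Without the injected library of mouse AA, 1 member differed between R55 and vehicle at that p, where 911 of the 12976 genes did. The test counted both sides of a mouse as separate libraries. With the correlation within mice modelled, 0 members were called and the unadjusted p of Ifit3 for R55 against vehicle was 0.0176 in place of 0.00843. Those of Gbp2 and Gbp3 then no longer passed 0.05, at 0.0567 and 0.0811. With limma voom on recovered fragments, the adjusted count was again 0 in each comparison. The unadjusted counts were 3, 0, 0 and 1, where 1050, 748, 143 and 486 of the 12976 genes passed. Levels of the 37 tested members varied more between mice than those of most genes. Their median SD over the 14 mice was 0.39 on the log2 scale against 0.14 for all tested genes, and 3.55% of tested genes had an SD at or above the members' median. Without mice AA and AD the medians were 0.31 and 0.13.

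Among the transcription factors, Irf7 is itself induced by interferon. Contralateral Irf7 levels were 3.69, 4.15, 3.11 and 1.82 FPKM with vehicle, 1.70, 2.22, 3.22 and 2.90 FPKM with R33, and 2.36, 5.43, 3.84, 6.38 and 4.92 FPKM with R55. Irf7 in injected tissue read 3.79, 2.16, 1.84 and 2.54 FPKM with vehicle, 1.72, 1.42, 2.0, 6.46 and 3.30 FPKM with R33, and 1.25, 1.98, 3.13, 19.6 and 3.15 FPKM with R55. The injected side of mouse AA lay at 6.53 times the median of the other 26 libraries, the contralateral side of the same mouse held 6.38 FPKM, and every library but that highest one lay between 1.25 and 6.46 FPKM. Over mice, the mean of both sides was 2.89 ± 0.70 FPKM (SD, n = 4) with vehicle, 2.82 ± 1.22 (SD, n = 5) with R33 and 5.21 ± 4.44 (SD, n = 5) with R55. The R55 difference from vehicle was 0.42 on the log2 scale (SE 0.29, limma adjusted p = 0.646), and 0.17 without the injected library of mouse AA. Irf9, the DNA-binding partner of STAT2, ranged from 3.24 to 15.5 FPKM with a median of 5.23. Stat2 was among the steadiest members, from 5.27 to 10.6 FPKM (median 6.23), and its fitted R55 difference was 0.10 (SE 0.08), and 0.04 without the injected library of mouse AA. Nlrc5, the activator of class I genes, had a median of 0.25 FPKM and Ciita, the activator of class II genes, of 0.19 FPKM. Both were highest in the injected side of mouse AA, at 0.952 and 0.452 FPKM.

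The antiviral genes held the member with the largest treatment difference, Ifit3, whose protein binds IFIT1 and stabilises its hold on foreign RNA. Contralateral Ifit3 levels were 6.73, 4.96, 3.90 and 5.99 FPKM with vehicle, 3.61, 5.0, 5.77 and 10 FPKM with R33, and 5.92, 17.2, 9.54, 14 and 14.8 FPKM with R55. Injected tissue held Ifit3 at 6.87, 3.69, 3.78 and 7.44 FPKM with vehicle, 3.99, 3.91, 5.13, 19.6 and 10.6 FPKM with R33, and 4.44, 5.56, 7.29, 38.6 and 11.7 FPKM with R55. In contralateral tissue 4 of 5 R55 mice exceeded every vehicle mouse, with mouse P inside the vehicle range, and in injected tissue 2 of 5 did. Mean levels over mice were 5.42 ± 1.56 FPKM (SD, n = 4) with vehicle, 7.82 ± 4.73 (SD, n = 5) with R33 and 12.9 ± 8.09 (SD, n = 5) with R55. R55 minus vehicle was 0.90 on the log2 scale (SE 0.32, 95% interval 0.25 to 1.55, unadjusted p = 0.00843, limma adjusted p = 0.545). It was 0.70 (SE 0.28) without the injected library of mouse AA. R33 minus vehicle was 0.26 (SE 0.32, adjusted p = 0.891), and it was -0.026 without mouse AD. Ifit3 has a near copy, Ifit3b, with a mean of 4.72 FPKM and a highest value of 19.55, and how fragments shared between them were assigned is not given in the sources used here.

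Ifit1, which binds viral RNA lacking a full cap, showed a like order of libraries. Contralateral Ifit1 levels were 2.30, 1.72, 2.02 and 1.72 FPKM with vehicle, 1.37, 1.73, 1.97 and 3.25 FPKM with R33, and 1.88, 7.05, 2.96, 4.63 and 4.36 FPKM with R55. On the injected side Ifit1 measured 2.52, 1.76, 1.21 and 2.52 FPKM with vehicle, 1.33, 1.31, 1.35, 6.02 and 3.52 FPKM with R33, and 1.16, 1.40, 2.0, 14.4 and 3.30 FPKM with R55. The injected side of mouse AA was highest and the contralateral side of mouse Q came second. The R55 difference from vehicle was 0.59 (SE 0.29, limma adjusted p = 0.589), and it was 0.38 (SE 0.23) without the injected library of mouse AA. The R33 difference was 0.11 (SE 0.30). The related Ifit2 ran from 2.94 to 13.1 FPKM (median 4.43).

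Ifitm3, a membrane protein that blocks virus entry, was the most abundant antiviral member, with a lowest, median and highest level of 18.6, 36.5 and 128 FPKM. Mouse AA, injected (128 FPKM), and mouse AD, injected (123 FPKM), stood together at the top, followed by mouse AA, contralateral (82.4 FPKM). Every other library was at or below 53.0 FPKM. Ifi27, an interferon-induced mitochondrial protein, was steadier, at 15.5, 26.1 and 44.7 FPKM, and was the only tested member whose fitted R55 difference from vehicle was below 0 (-0.07, SE 0.16) with all libraries in the fit. Bst2, which tethers budding virions, spanned 4.36 to 46.1 FPKM (median 11.2). Its R55 difference was 0.20 (SE 0.31), and 0.005 (SE 0.273) without the injected library of mouse AA. Oasl2, of the 2′-5′ oligoadenylate synthetase family, reached 25.6 FPKM in the injected side of mouse AA against a median of 3.40 FPKM. Rsad2, which encodes viperin, had 7.79 times the median of the other libraries there. Cmpk2, a mitochondrial nucleotide kinase next to Rsad2 in the genome, spanned only 7.73 to 15.2 FPKM. Of the 14 tested antiviral genes 13 were above 0 in R55 minus vehicle (median 0.29) and 8 in R33 minus vehicle (median 0.01). Rsad2 and Oas1a are among the 14, and without them the R55 count was 11 of 12 with a median of 0.28, or 0.13 when the injected library of mouse AA was also left out. Ifih1, which encodes the RNA sensor MDA5, was in the first set with 0.19 (SE 0.11), and had 0.094 without the injected library of mouse AA. Mx1, whose product is not functional in most laboratory strains including C57BL/6, had too low a level to be tested, at a median of 0.25 FPKM.

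ISG15 is attached to proteins by UBA7 (the activating enzyme) and UBE2L6 (the conjugating enzyme), and USP18 removes it and also restrains the interferon receptor. Contralateral Isg15 levels were 6.72, 5.35, 3.49 and 3.04 FPKM with vehicle, 3.46, 3.79, 3.64 and 6.17 FPKM with R33, and 3.28, 13.1, 4.84, 9.14 and 10.1 FPKM with R55. Isg15 in injected tissue read 6.97, 2.78, 3.31 and 3.41 FPKM with vehicle, 3.11, 2.62, 3.01, 19 and 4.84 FPKM with R33, and 1.91, 4.67, 4.74, 45.3 and 7.67 FPKM with R55. Outside mouse AA and mouse AD, the contralateral side of mouse Q held the highest level, and its own injected side held less. The injected side of mouse AA was 10.7 times the median of the other libraries, the largest such ratio among the 41 members, and 4.96 times its own contralateral side. R55 minus vehicle was 0.68 (SE 0.38, limma adjusted p = 0.605), which became 0.39 without that library.

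The conjugating enzyme gene Ube2l6 was less variable than Isg15. Contralateral Ube2l6 levels were 5.05, 3.92, 2.85 and 3.85 FPKM with vehicle, 3.77, 2.96, 4.13 and 4.97 FPKM with R33, and 3.63, 6.39, 4.99, 6.39 and 6.81 FPKM with R55. Injected tissue held Ube2l6 at 5.01, 3.90, 4.41 and 4.40 FPKM with vehicle, 3.69, 3.69, 4.25, 8.79 and 4.96 FPKM with R33, and 3.78, 4.65, 4.78, 9.57 and 5.90 FPKM with R55. Contralateral tissue of 3 R55 mice was above every vehicle library of that side, and the groups overlapped through mice P and R. R55 minus vehicle was 0.34 (SE 0.15, unadjusted p = 0.0275, limma adjusted p = 0.56), and 0.27 without the injected library of mouse AA. Usp18 had a median of 1.41 FPKM and reached 13.2 FPKM in the injected side of mouse AA, 9.58 times the median of the other libraries. Uba7 ran from 0.711 to 2.44 FPKM, and it was higher on the injected side in 2 of 13 mice. Its hemisphere difference was the lowest of all tested members (-0.12).

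The guanylate-binding proteins are GTPases that assemble on vacuoles of pathogens and respond to type II interferon above all. Contralateral Gbp2 levels were 2.68, 1.68, 2.71 and 1.83 FPKM with vehicle, 2.13, 1.67, 2.81 and 2.40 FPKM with R33, and 2.76, 4.85, 3.48, 4.54 and 3.16 FPKM with R55. On the injected side Gbp2 measured 3.88, 2.16, 2.49 and 2.35 FPKM with vehicle, 1.5, 1.82, 2.96, 6.98 and 4.37 FPKM with R33, and 2.15, 2.48, 3.55, 14.4 and 4.20 FPKM with R55. On the contralateral side all 5 R55 libraries, from 2.76 FPKM in mouse P upward, exceeded all 4 vehicle libraries, of which the highest was 2.71 FPKM, a separation that 2.78% of all tested genes showed on that side. On the injected side the groups overlapped. R55 minus vehicle was 0.54 (SE 0.23, unadjusted p = 0.027, limma adjusted p = 0.558), and 0.36 without the injected library of mouse AA.

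Gbp3 had the same 2 injected libraries at the top. Contralateral Gbp3 levels were 2.74, 2.62, 2.65 and 2.0 FPKM with vehicle, 2.08, 2.11, 3.51 and 3.12 FPKM with R33, and 2.35, 4.89, 4.44, 4.25 and 3.88 FPKM with R55. Gbp3 in injected tissue read 3.56, 2.18, 2.93 and 2.51 FPKM with vehicle, 2.27, 1.80, 2.76, 8.19 and 3.93 FPKM with R33, and 1.69, 2.65, 4.77, 13 and 3.91 FPKM with R55. The injected side of mouse AA held 4.74 times the median of the other libraries and mouse AD, injected, 8.19 FPKM, while the remaining 25 libraries stayed at or below 4.89 FPKM. R55 minus vehicle was 0.48 (SE 0.23, unadjusted p = 0.0442, limma adjusted p = 0.584), and 0.32 without the injected library of mouse AA. Gbp7, at a median of 1.58 FPKM, gave 0.15 (SE 0.13), and 0.03 without that library. The Gbp genes form a family of close copies, so fragments may have been shared among them.

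Class I molecules present peptides from inside the cell. B2m, the light chain common to all class I molecules, was the most abundant member. Contralateral B2m levels were 313, 258, 272 and 262 FPKM with vehicle, 225, 187, 297 and 313 FPKM with R33, and 201, 274, 308, 410 and 357 FPKM with R55. Injected tissue held B2m at 305, 242, 286 and 315 FPKM with vehicle, 212, 238, 298, 490 and 369 FPKM with R33, and 162, 183, 306, 606 and 315 FPKM with R55. Levels over mice were 282 ± 24.6 FPKM (SD, n = 4) with vehicle, 300 ± 85.7 (SD, n = 5) with R33 and 312 ± 125 (SD, n = 5) with R55. The lowest and the highest of all libraries were both from R55 mice, P and AA, on the injected side. R55 minus vehicle was 0.05 (SE 0.20, 95% interval -0.35 to 0.46), and -0.066 without the injected library of mouse AA.

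The class I heavy chain H2-K1 had a lowest, median and highest level of 18.9, 35.5 and 80.7 FPKM, and H2-D1, another heavy chain, of 11.3, 22 and 45.0 FPKM. Both were lowest in mouse P, injected, and highest in mouse AA, injected. The heavy chain genes are similar in sequence, so their separate levels are uncertain. Psmb8 and Psmb9, subunits of the immunoproteasome that cuts peptides for class I, reached 24.7 and 9.51 FPKM in mouse AA, injected, against medians of 6.76 and 3.49 FPKM. Tap1 and Tap2 form the peptide transporter and Tapbp loads the peptide, and the medians were 2.05, 5.07 and 13.3 FPKM. All 8 class I genes were above 0 in R55 minus vehicle (median 0.12, highest 0.32 for Psmb8), but without the injected library of mouse AA only 4 of 8 were (median 0.039), and B2m, H2-K1, H2-D1 and Tap1 were below 0. In R33 minus vehicle 2 of 8 were above 0 (median -0.014).

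Class II molecules present peptides taken up from outside, mainly on professional antigen-presenting cells, and CD74 is their chaperone. Contralateral H2-Aa levels were 2.74, 5.03, 2.34 and 2.66 FPKM with vehicle, 1.27, 1.15, 2.60 and 3.59 FPKM with R33, and 1.79, 3.91, 2.30, 11.9 and 2.93 FPKM with R55. On the injected side H2-Aa measured 3.58, 4.46, 1.92 and 3.23 FPKM with vehicle, 0.747, 1.76, 1.93, 13.1 and 3.98 FPKM with R33, and 1.16, 2.24, 2.45, 11.2 and 5.17 FPKM with R55. The values of 3 libraries stood far above the rest, namely both sides of mouse AA and the injected side of mouse AD, and the next was at 5.17 FPKM. For H2-Aa the contralateral side of mouse AA was thus as high as its injected side, whereas for Ifit3 it held 14 against 38.6 FPKM. R55 minus vehicle was 0.15 (SE 0.35), and it was -0.005 without the injected library of mouse AA. R33 minus vehicle was -0.25 (SE 0.36).

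Cd74 ran from 4.03 to 32.0 FPKM (median 10.7), H2-Ab1 from 1.22 to 11.9 (median 3.21) and H2-Eb1 from 0.778 to 6.63 (median 1.83). The R33 difference of Cd74 from vehicle, -0.31 (SE 0.35, limma adjusted p = 0.881), was the lowest of the 37 members. In contralateral tissue Cd74 measured 4.32 and 4.37 FPKM in R33 mice K and N, below the 8.86 to 14.8 FPKM of vehicle mice, whereas mice O and AD were within that range at 9.33 and 10.7 FPKM.

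Ifi30, a lysosomal thiol reductase that unfolds antigens before class II loading, was the member that differed most between hemispheres. Contralateral Ifi30 levels were 4.14, 3.59, 3.84 and 5.57 FPKM with vehicle, 4.25, 3.70, 5.04 and 5.42 FPKM with R33, and 4.31, 5.95, 6.44, 11.5 and 6.71 FPKM with R55. Ifi30 in injected tissue read 7.37, 4.64, 6.68 and 7.84 FPKM with vehicle, 5.04, 4.31, 9.64, 19.6 and 9.82 FPKM with R33, and 2.87, 5.97, 9.86, 26.3 and 13.3 FPKM with R55. It was higher on the injected side in 12 of 13 mice, the exception being mouse P. The difference between hemispheres was 0.57 (SE 0.22, 95% interval 0.12 to 1.02, unadjusted p = 0.0153, limma adjusted p = 1), and 0.45 without the injected library of mouse AA. With each mouse as its own control it was 0.55 (SE 0.13, unadjusted p = 0.000856, limma adjusted p = 0.417). The paper, which tested with DESeq2, listed Ifi30 among the few genes called both for microinjection and for R55 against vehicle. In the limma fit, R55 minus vehicle for Ifi30 was 0.50 (SE 0.27, adjusted p = 0.598), and 0.35 without the injected library of mouse AA.

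**Figure D2:**
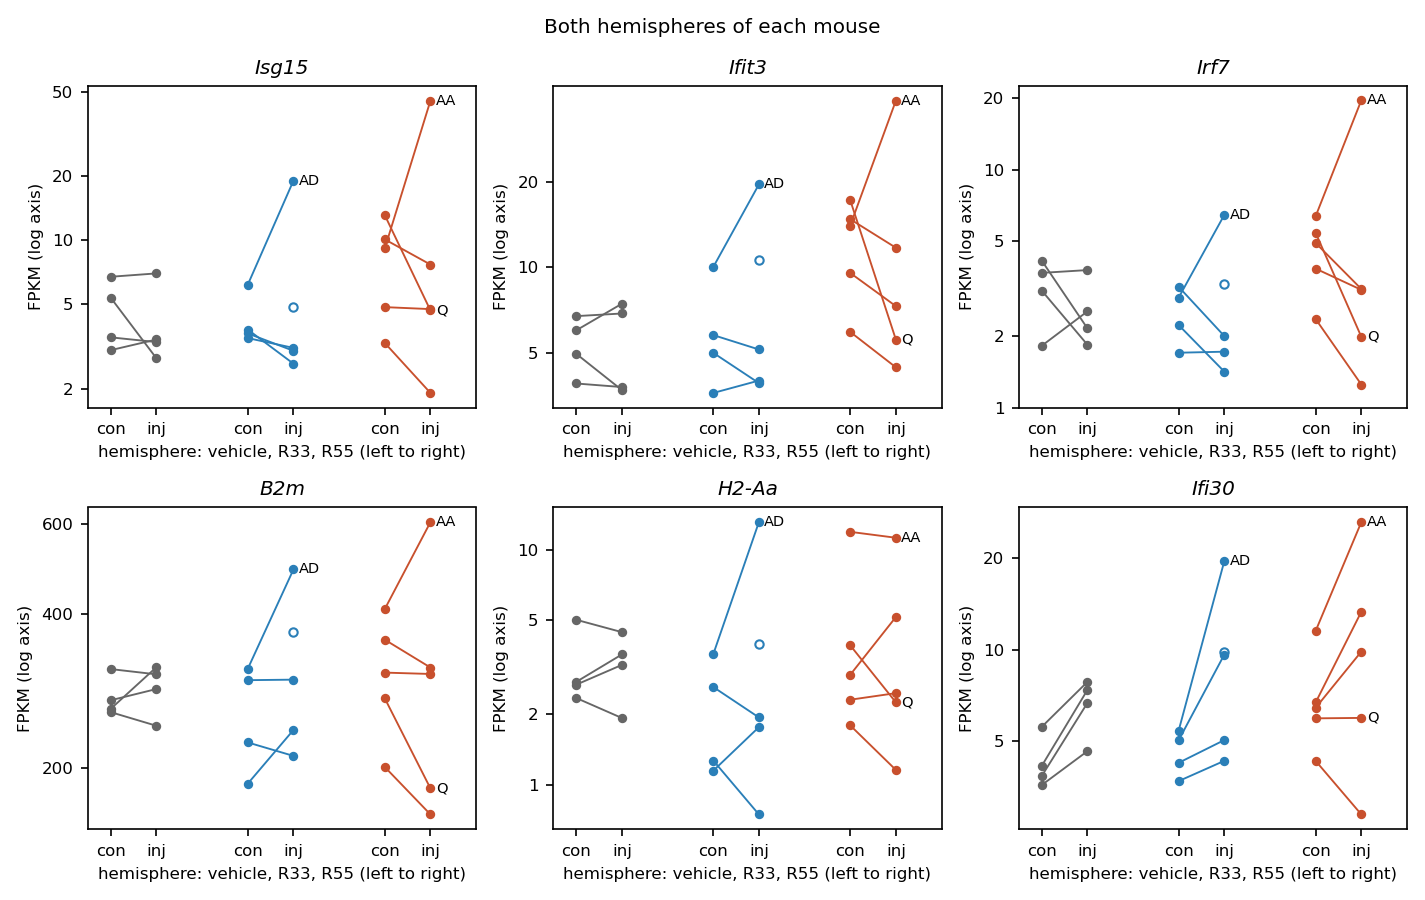
FPKM on a log axis of 6 members in both hemispheres of each mouse (con, contralateral; inj, injected), with lines joining the sides of a mouse and an open circle for mouse AE, which has the injected side alone. Lines of mice AA and AD run upward to the 2 highest points for Isg15, Ifit3, Irf7 and B2m, lines of R55 mouse Q run downward for 5 of the 6 genes, and Ifi30 climbs in every mouse but P.

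Over both sides, R55 minus vehicle had a median of 0.27 on the log2 scale over the 37 tested members, and 36 were above 0, while the median of all tested genes was 0.026 with 60.2% above 0. Without the injected library of mouse AA the members' median was 0.11 with 30 above 0, and without mice AA and AD it was 0.07 with 27 above 0. Rsad2 and Oas1a aside, 34 of 35 were above 0 with a median of 0.22, and 28 with a median of 0.11 without that library. Without R55 mouse P it was 0.41. No member had all R55 mice above or below all vehicle mice, where 2.41% of tested genes had. R33 minus vehicle had a median of -0.006 with 16 above 0, and 0 members whose mice did not overlap (0.771% of tested genes). Without mice AA and AD that median was -0.117 with 4 of 37 above 0. Both comparisons used the same vehicle mice.

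R55 and R33, given at the same dose and read at the same time, form the only pair of compounds. R55 minus R33 had a median of 0.27 with 36 of 37 above 0, and 0.14 with 35 above 0 without the injected library of mouse AA. It was 0.47 without mouse P. With Rsad2 and Oas1a left out, 34 of 35 were above 0 with a median of 0.27. The count was 33 with a median of 0.12 when the injected library of mouse AA was also left out. R33 and R55 mice overlapped in all 37 members. Only 0.1% of tested genes did not overlap, so this count says little about the members. The largest difference was again Ifit3, at 0.64 (SE 0.31, 95% interval 0.01 to 1.27, unadjusted p = 0.0461, limma adjusted p = 1). With the correlation within mice modelled in limma it was 0.62 (SE 0.34, unadjusted p = 0.0819), and with 1 library per mouse 0.58 (unadjusted p = 0.129). It was 0.43 without the injected library of mouse AA. For Isg15 the interval was -0.18 to 1.33 and for B2m -0.34 to 0.45, so both intervals included 0.

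**Figure D3:**
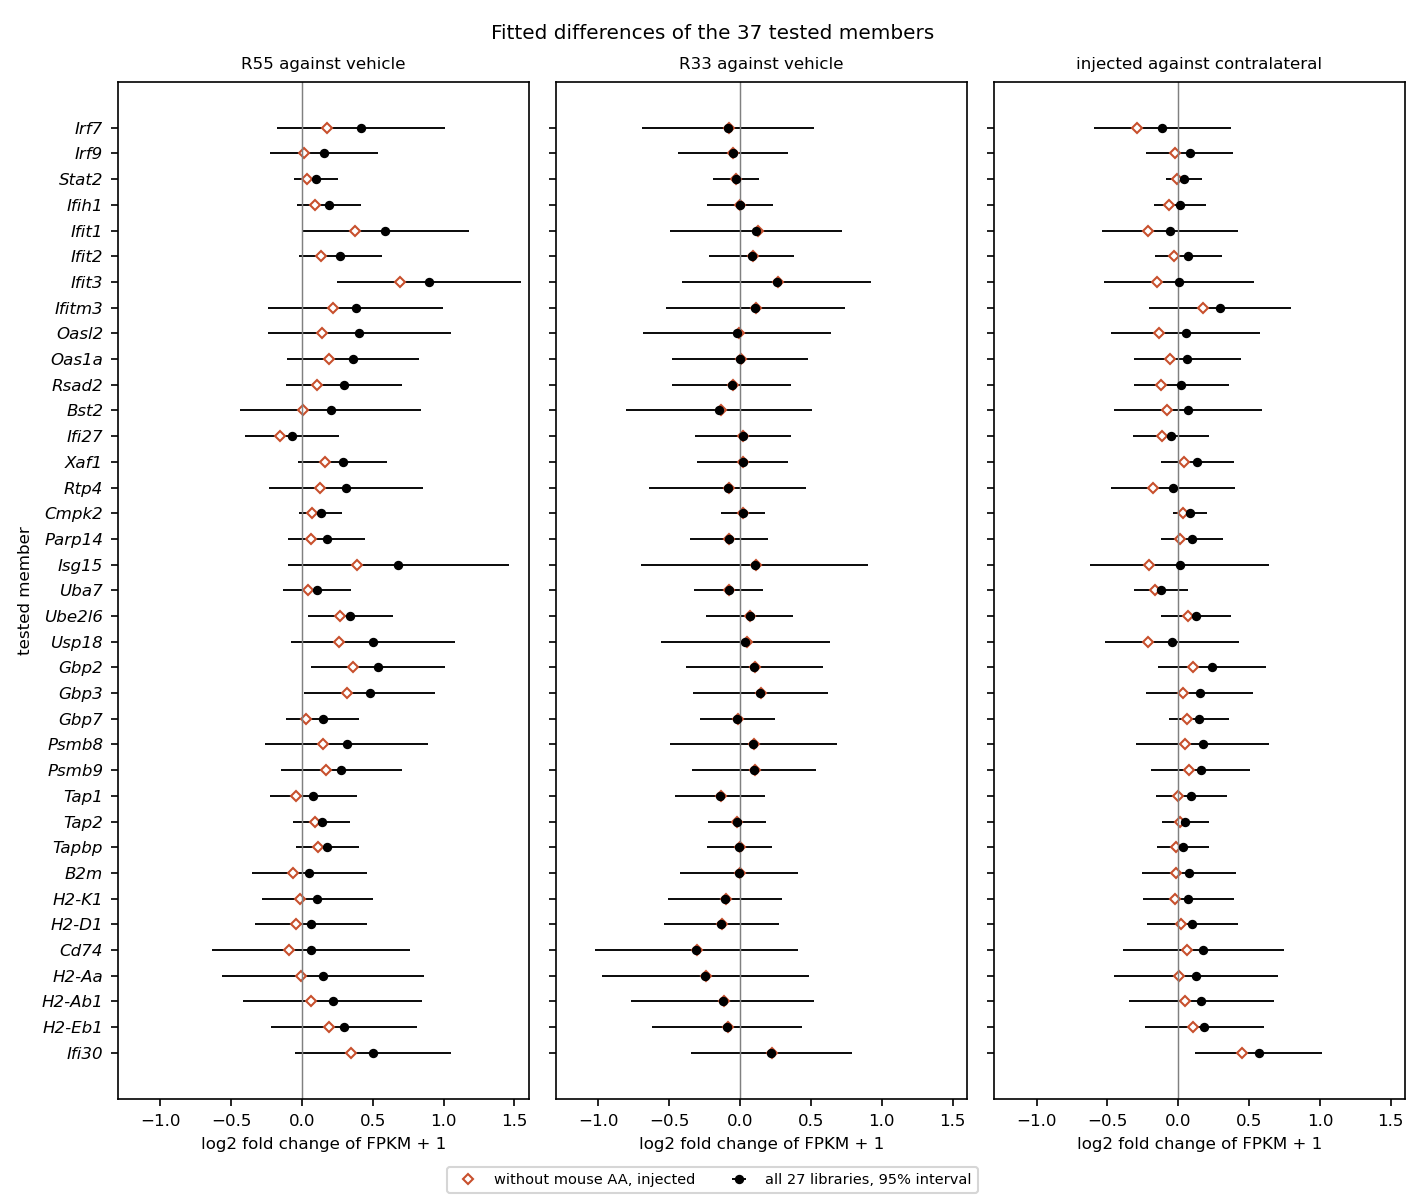
Fitted log2 fold changes of FPKM + 1 with 95% intervals (black points and lines) for the 37 tested members in 3 comparisons, and the same estimate without the injected library of mouse AA (open diamonds). In the R55 panel 36 points lie right of 0 and nearly all diamonds lie to the left of their points, and in the R33 panel points scatter about 0.

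Injected minus contralateral tissue, taken over all treatments, had a median of 0.075 with 31 of 37 members above 0. It was -0.01 with 18 above 0 without the injected library of mouse AA, and 0.025 without both sides of that mouse. Rsad2 and Oas1a aside, 29 of 35 were above 0 with a median of 0.081. The count was 18 with a median of 0.001 when the injected library of mouse AA was also left out. Within vehicle mice the median was 0.045 with 24 above 0, and 0 members passed an unadjusted p of 0.05 (1.08% of tested genes). Within R33 mice it was 0.24 with 35 above 0, again with 0 at that p (2.84%), and 0.13 with 28 above 0 without mice AA and AD. Within R55 mice it was -0.022 with 15 above 0 and 0 at that p (3.66%). That last value rested on mouse AA. Without its injected library it was -0.38 with 2 of 37 above 0, in a fit that kept its contralateral side. Without both sides of mouse AA it was -0.216.

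The difference of the R55 effect between hemispheres was tested as an interaction. Its median over the members was -0.046 with 11 above 0 and 0 at an unadjusted p under 0.05 (1.84% of tested genes). It was -0.41 with 0 above 0 without the injected library of mouse AA, and -0.3 without both sides of that mouse. For R33 the interaction had a median of 0.23 with 32 above 0 and 0 at that p (0.378%), and 0.079 with 28 above 0 without mice AA and AD. In injected tissue R55 minus vehicle had a median of 0.23 with 34 above 0 and 0 at that p (0.825%). It was -0.05 with 10 above 0 without the injected library of mouse AA. The members counted include Rsad2 and Oas1a, which passed the filter only through that library. In contralateral tissue the median was 0.29 with all 37 above 0 and 1 at that p, Ifit3 (1.0, SE 0.46, limma adjusted p = 0.431), where 11.2% of tested genes passed. Without mice AA and AD it was 0.15 with 34 above 0. All R55 libraries of that side lay above all vehicle libraries for 2 of 37 members, Gbp2 and Ifih1, where 2.78% of tested genes had no overlap. On the injected side this held for 0 members (0.948% of tested genes), and for R33 against vehicle for 0 members on the injected side (0.378%) and 0 on the contralateral side (1.79%). R33 minus vehicle gave a median of 0.078 in injected tissue and -0.096 in contralateral tissue, with 0 members at that p in either (1.75% and 2.62% of tested genes). The former was -0.088 without mice AA and AD.

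Mice differed in the direction between sides. In each mouse with both sides, the members' median difference between injected and contralateral tissue was 0.97 in R55 mouse AA and 0.73 in R33 mouse AD, with 35 of 37 members higher on the injected side in each. It was 0.29 in vehicle mouse AH. It was -0.67 in R55 mouse Q, with 3 members higher, and -0.31 in R55 mouse P, with 1 higher. The other 8 mice lay between -0.132 and 0.077. R55 mice therefore included the highest and the 2 lowest of the 13 differences.

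The injected library of mouse AA was the highest of 27 for 38 of the 41 members and among the top 3 for all 41, while it was the highest for 5.3% of tested genes. Its median deviation from each member's median library was 1.41 on the log2 scale, against 0.009 for all tested genes. Over the median of the other libraries its excess was 5.88-fold for ISG15 conjugation, 4.74-fold for the guanylate-binding proteins, 4.36-fold for the antiviral genes, 3.75-fold for class II, 2.99-fold for the transcription factors and NLR regulators and 2.21-fold for class I (medians over members). Over the contralateral side of the same mouse the order changed, with 3.18-fold for the guanylate-binding proteins, 2.44-fold for ISG15 conjugation, 2.38-fold for the antiviral genes, 2.23-fold for the transcription factors and NLR regulators, 1.54-fold for class I and 1.1-fold for class II.

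The injected library of mouse AD was the highest for 3 members and the second highest for 22, with a median deviation of 0.86. It was also the highest of 27 for 22% of all tested genes and the lowest for 13.6%. Here class II led, at 3.54-fold over the median of the other libraries and 3.49-fold over its own contralateral side, while the antiviral genes were at 2.25-fold and 1.96-fold. Ifit2, Cmpk2 and Tap2, by contrast, were at 1.08, 1.02 and 0.853 times the median there. At the other end, the injected library of R55 mouse P was the lowest for 22 members, against 2.23% of tested genes, with a median deviation of -0.52. The R55 group thus held the extremes in both directions.

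**Figure D4:**
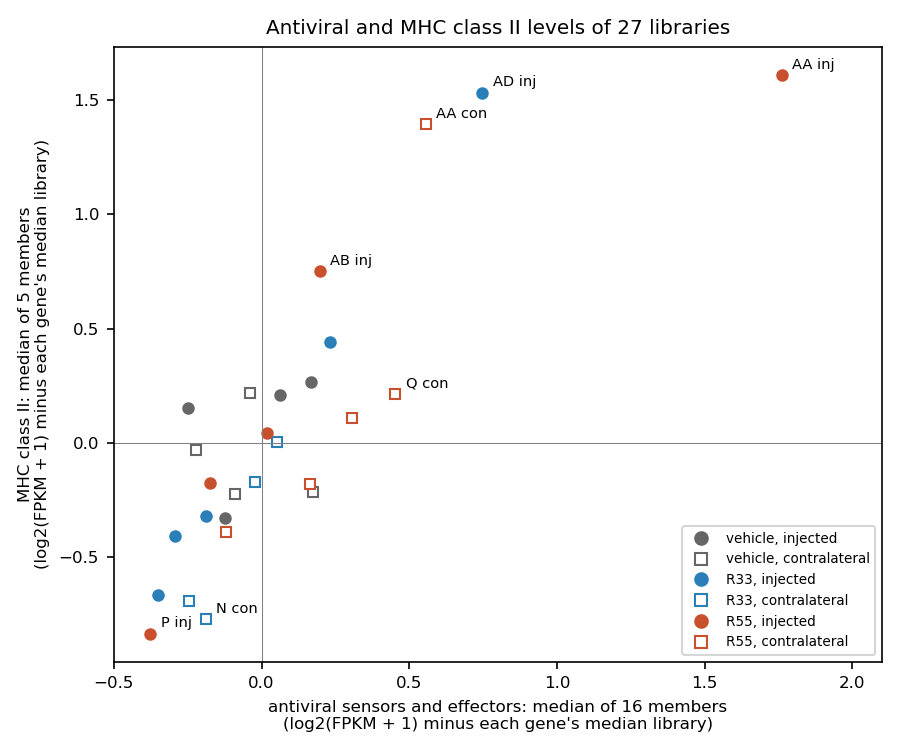
Each of the 27 libraries by its median level of the 16 antiviral members (horizontal axis) and of the 5 class II members (vertical axis), both as log2(FPKM + 1) minus each gene's median library. The injected library of mouse AA is alone at the right, and it shares the top with mouse AD, injected, and mouse AA, contralateral, whose antiviral levels are lower.

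Across the 14 mice, the tested members moved with Irf7. Pearson's r with Irf7 was highest for Usp18 (r = 0.970, Spearman's rho = 0.938, both permutation p-values 1e-05, the smallest that 100000 permutations can give, and adjusted at most 9e-05 over 36 members). Without mice AA and K, the 2 farthest from the median of Irf7, r for Usp18 was 0.907. Isg15 gave r = 0.937 and rho = 0.947, and r = 0.904 without those mice. The lowest r was that of Tap2, the peptide transporter gene (r = 0.601, rho = 0.657, permutation p = 0.0132 and 0.012, adjusted 0.0132 and 0.0135). Stat2 had r = 0.839 but rho = 0.486 (permutation p = 0.00301 and 0.0809, adjusted 0.00319 and 0.0809), and r = 0.435 without those mice, so its relation rested on them. Over roles the median r without those mice was 0.90 for ISG15 conjugation, 0.80 for the antiviral genes, 0.79 for the guanylate-binding proteins, 0.78 for both class I and class II, and 0.66 for the 2 other transcription factors.

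Mouse labels have 1 letter in 9 mice and 2 letters in 5, and the labels do not say what this marks. The members' median level was higher in the latter (median 0.25, range -0.077 to 1.058) than in the former (median -0.13, range -0.395 to 0.129). Among mice with 1 letter, R55 minus vehicle had a median of 0.004 over the members with 19 of 37 above 0 (3 mice against 3). Among mice with 2 letters it was 0.80 with 37 above 0, from 2 R55 mice against 1 vehicle mouse. R33 minus vehicle was -0.21 with 3 above 0 among the former and 0.42 with 37 above 0 among the latter. Among mice with 1 letter the guanylate-binding proteins had a median R55 difference of 0.185 with 2 of 3 above 0, and class II had -0.28 with 1 of 5 above 0. With the series as a covariate in limma, the median of R55 minus vehicle over the members was 0.19. It was 0.75 for Ifit3 (unadjusted p = 0.00296, adjusted p = 0.462) and 0.28 for Ube2l6 (unadjusted p = 0.0261, adjusted p = 0.614). That fit counted both sides of a mouse as separate libraries. In limma with 1 library per mouse and no series term, the unadjusted p was 0.0325 for Ifit3 and 0.0749 for Ube2l6. Within the 9 mice with 1 letter, Pearson's r with Irf7 ran from 0.396 for Cmpk2 to 0.977 over the 36 members (median 0.825), with 0.914 for Usp18 and 0.835 for Isg15.

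Markers of some cell types were high in libraries where the members were high, and those of others were not. The sum of 7 disease-associated microglia markers was 1460 FPKM in mouse AA, injected, and 1480 FPKM in mouse AD, injected. Both lay within the 917 to 2000 FPKM of the other 25 libraries, but most of each sum was Apoe (1115 and 1062 FPKM). Tyrobp (178 and 253 FPKM) and Clec7a (13.0 and 12.6 FPKM) were highest in these libraries. Trem2 was highest in mouse AD, injected (72.6 FPKM). Cst7, Itgax, Lpl and Apoe were highest in other libraries. The summed level of 7 microglial markers was 547 FPKM in mouse AA, injected, against 199 to 415 FPKM in all others, and it was 316 FPKM in mouse AD, injected. The sum of 4 monocyte markers was 110 FPKM in mouse AD, injected, 108 in mouse AA, contralateral, and 63.9 in mouse AA, injected, and it was at most 44.5 FPKM elsewhere. In these 3 libraries nearly all of it was Lyz2, which microglia and macrophages also express. Ccr2, Ly6c2 and Plac8 were each under 2 FPKM but highest in these libraries. Ly6c2 was at 1.47 and 1.89 FPKM in mouse AA, contralateral and injected, and at most 0.398 elsewhere. Sums of border macrophage markers (8.28 FPKM) and neutrophil markers (12.8 FPKM) were highest in mouse AD, injected, against 3.79 and 2.93 FPKM in its contralateral side. Border macrophage markers reached 8.01 FPKM in R55 mouse AB, injected, where the members' median deviation was 0.258. Astrocyte markers were highest in mouse AA, injected, at 947 FPKM. They summed to 893 FPKM in R33 mouse AE, injected, 808 FPKM in R33 mouse AD, injected, and 793 FPKM in R33 mouse O, injected. The members' median deviations there were 0.258, 0.862 and -0.074. The part of these cell type markers in the members' levels was not tested.

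Endothelial marker sums were 33.2 to 50 FPKM in the 5 mice with 2-letter labels, vehicle mouse AH included (36.1 and 36.2 in mouse AA), and 49.6 to 129 FPKM in the others. T cell, NK cell and B cell markers summed to at most 5.44, 0.776 and 1.30 FPKM in any library. In the 3 libraries highest for H2-Aa the T cell sum was 1.04 to 1.43 FPKM. The globin genes Hba-a1, Hbb-bs and Hbb-bt were listed at 0 in every library, and why was not tested. The other red blood cell marker, Alas2, was above 0 in every library. It was highest in mouse AD, injected, at 8.17 FPKM, against 3.08 FPKM on its contralateral side.

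**Figure D5:**
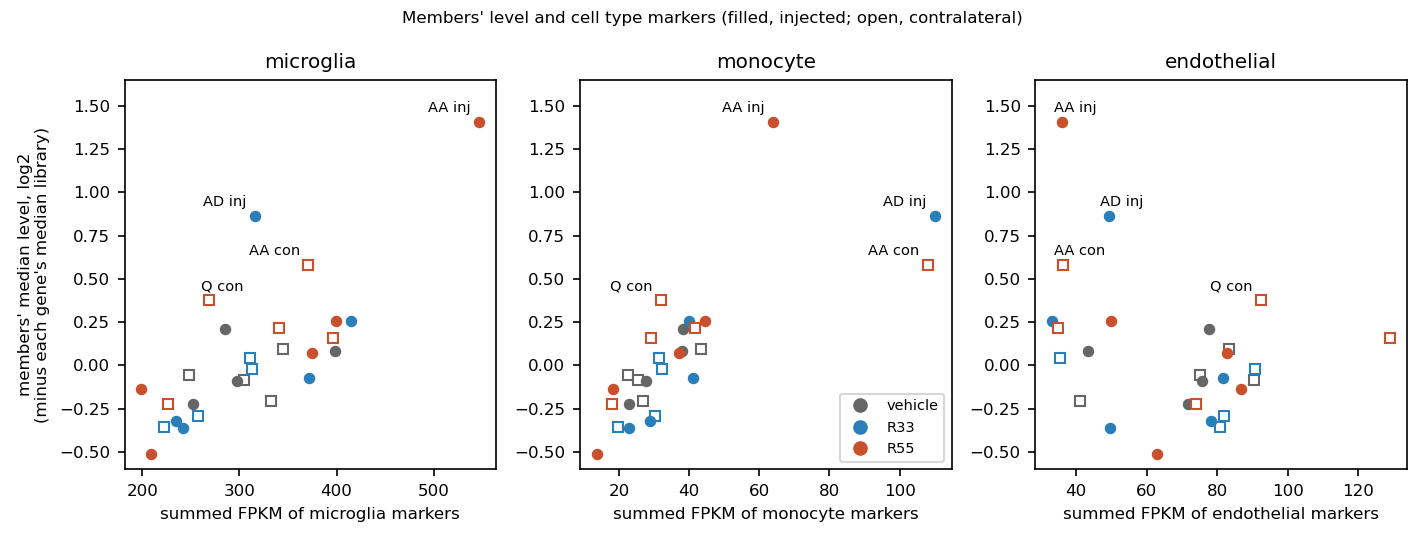
The members' median level in each library, as log2(FPKM + 1) minus each gene's median library, against the summed FPKM of microglial, monocyte and endothelial markers. Mouse AA, injected, is highest in members and microglial markers, mouse AD, injected, and mouse AA, contralateral, are highest in monocyte markers, and mouse AA lies at the low end of the endothelial markers with the other mice of 2-letter labels.

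Interferon transcripts themselves were barely detected. Over all 27 libraries Ifnb1 had 4 fragments, Ifng 5, Ifne 4 and Ifnk 1, and Ifna2, Ifna4, Ifna5, Ifnl2 and Ifnl3 had 0. No library held more than 2 fragments of any of them. In the injected side of mouse AA, where the members were highest, not 1 fragment of these 9 genes was counted.

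A wider list of 114 genes of the same pathways (receptors, sensors, other interferon-induced, class I and class II genes, and feedback regulators) had 71 tested genes, of which 0 were called in the 4 comparisons over both sides by limma, and 0 by limma voom. At an unadjusted p under 0.05, 7 were higher with R55 than with vehicle, 0 differed between R33 and vehicle, 2 between R55 and R33, and 4 between hemispheres, where 8.45%, 5.87%, 1.15% and 3.47% of all tested genes passed. The chemokine gene Cxcl10, which draws T cells, had the largest R55 difference (0.85, SE 0.38, limma adjusted p = 0.574), and had 0.55 (SE 0.29) without the injected library of mouse AA. It measured 27 FPKM in the injected side of mouse AA and 0.46 to 5.93 FPKM in the other libraries. Ifitm1, a neighbour and relative of Ifitm3, gave 0.58 (SE 0.36), and Ifitm2 gave 0.45 (SE 0.21), or 0.53 and 0.42 without that library. Iigp1, a GTPase of the IRG family, gave 0.37 (SE 0.19) for R55 against vehicle and 0.36 (SE 0.18) against R33, which became 0.22 and 0.21 without it. Socs3, a feedback inhibitor of cytokine receptors, was higher on the injected side by 0.39 (SE 0.15, limma adjusted p = 1). Over the 71 genes the median R55 difference from vehicle was 0.13 with 63 above 0, and 0.061 with 50 above 0 without the injected library of mouse AA.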

How the data were processed

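Bulk RNA from about 1 mm3 of cortex per hemisphere was sequenced by the authors (poly(A)-selected stranded libraries, NextSeq 2000) and aligned to GRCm39 with HISAT2, and they tested it with DESeq2. The counting tool and annotation are not given in the sources used here. The deposited values are FPKM, fragments scaled by gene length and library total, with totals and gene lengths set by the authors. Every value above 0 equalled a whole number of fragments within 0.01 (100% of values), which gave the depth of each library. The table has 32 libraries, of which 5 match no sample label analysed here and were not used. Mice are separate animals.

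Genes averaging 1 FPKM or more were tested on log2(FPKM + 1) with limma 3.58.1 (R 4.3.3, moderated with an intensity trend), with treatment and hemisphere as terms or with 6 groups, and p-values were adjusted by Benjamini-Hochberg over 12976 genes. Fold changes on this scale understate changes of low genes. The script was tested on simulated data. The correlation of the 2 sides of a mouse, which come from the same animal, had a median of 0.454 (lowest -0.0787, highest 0.648). Correlations over mice used 100000 permutations, two-sided. Alternatives changed the pseudocount, filter, trend, scaling, length, test, samples, mouse block and label series.

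The members and lists were chosen with earlier results of these data known. Values are given for every member called, the 5 members with the largest difference per comparison over both sides and the 2 with the highest mean per role. Outside the members, the 2 genes of the wider list with the largest difference per comparison were named. Promoters came from RefSeq (GRCm38.p6).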

Additional observations from a re-analysis of the deposited data

Results flagged for a closer look

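Within each group of 4 or 5 libraries, a library was singled out where its gap to the nearest other library, divided by the range of the group, passed Dixon's 95% critical value (0.829 for 4 and 0.71 for 5 libraries). This was done for the 19 members named by rule, in 114 sets of member and group, and 24 sets passed. Chance flags about 1 in 20 such sets, and members that move together do not give separate flags.

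The injected library of R55 mouse AA gave 10 of the 24. It stood above the other R55 injected libraries in Gbp2 (14.4 FPKM), Gbp3 (13.0), Ifit1 (14.4), Ifit3 (38.6), Isg15 (45.3), Bst2 (46.1), Irf7 (19.6), Irf9 (15.5), Stat2 (10.6) and Usp18 (13.2). The contralateral library of this mouse stood apart in H2-Aa (11.9 FPKM) and H2-Eb1 (6.43), which are class II genes.

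The injected library of R33 mouse AD gave 7, namely Ifitm3 (123 FPKM), H2-Aa (13.1), H2-Eb1 (6.63), Isg15 (19.0), Bst2 (31.1), Ifi27 (44.7) and Ube2l6 (8.79). Its contralateral library was flagged for Isg15 (6.17 FPKM). The other flags were vehicle mouse J, injected, for Isg15 (6.97 FPKM), vehicle mouse L, contralateral, for H2-Aa (5.03), R33 mouse O, contralateral, for Stat2 (6.55) and vehicle mouse AH, contralateral, which was low for Gbp3 (2.01).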

How the results depend on the processing

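In 29 other settings, each of the 320 recomputed counts of called members stayed at 0, and the smallest adjusted p was 0.188 (Ifit3, R55 against vehicle, without mouse AD). The main fit called at most 3 of 12976 tested genes in any comparison, so counts of 0 say little about the members. Without mice AA and AD, 26 genes were called for R55 against vehicle and 56 for R55 against vehicle in contralateral tissue. All 320 recomputed medians of the members moved by less than the SD between mice of a treatment (0.381). That SD was larger than every median of the main fit (at most 0.287), so this rule could hardly fail. Within it, the median of R55 minus vehicle in injected tissue went from 0.231 to -0.05 without the injected library of mouse AA. Of the single members, 594 values kept their direction and side of the threshold and 2 reversed, both Ifit3 for R33 against vehicle, which ran from -0.026 without mouse AD to 0.443 without mouse K and was -0.017 without mice AA and AD. The sides of a mouse are paired by animal, and with the mouse as a replicate block 0 members were called in any comparison. The median then was 0.052 between hemispheres with a fixed block, and 0.27 for R55 against vehicle with the correlation modelled (0.347). Settings without mice AA or AD were added after seeing the data.

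Leaving out each mouse in turn, the median for R55 against vehicle ran from 0.07 (without AA) to 0.414 (without P), for R33 against vehicle from -0.122 (without AD) to 0.054 (without K), for R55 against R33 from 0.069 (without AA) to 0.474 (without P) and between hemispheres from 0.025 (without AA) to 0.133 (without Q). Within R55 mice the median between hemispheres ran from -0.216 (without AA) to 0.099 (without Q), and within vehicle mice from -0.017 (without AH) to 0.099 (without L).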
